A study of Mus musculus with 8 samples.

Results

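The Tob and Btg genes encode small proteins that restrain cell division. The members described here are the 5 genes of the family that the deposited table lists as Tob1, Tob2, Btg1, Btg2 and Btg3, out of 23358 gene rows. They were followed in 8 outflow veins of carotid to jugular fistulas, 4 that received mesenchymal stem cells (MSCs) and 4 that received vehicle. Every mouse was C57BL6J and carried, in both groups, a model of chronic kidney disease set up 28 days before the fistula, and veins were removed 3 days after it. In the MSC group the outer layer of the vein was covered with 250000 cells of a sex-matched C57 donor. The labels do not say whether a sample is 1 animal, and RNA of the donor cells cannot be told apart from that of the recipient. Levels are RPKM as the authors deposited them, that is, reads scaled to the length of the gene model and the size of the library. The genes were chosen by name, as a family proposed with their RPKM values and fold changes in the MSC against vehicle comparison in view, so their values in that comparison are a description and carry no test.

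Proteins of this family share an amino-terminal domain that binds the CAF1 deadenylases, the enzymes encoded by Cnot7 and Cnot8, which shorten the poly(A) tail of messenger RNA as part of the CCR4-NOT complex. Tob1 and Tob2 also bind the cytoplasmic poly(A)-binding protein through a longer carboxy-terminal part, which links them to messages about to be degraded. Btg1 and Btg2 lack that part, bind the arginine methyltransferase Prmt1, and keep resting lymphocytes quiescent. Btg2 is induced by growth factors as an immediate early gene and by p53 after DNA damage, while Btg3 is known as a binder of E2f1. Division of smooth muscle cells and fibroblasts is part of the narrowing of fistula veins, the condition named in the title of the study.

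The sequences shown are the 250 bases before the start of Tob1, the member with the clearest difference between groups, and of the pair Btg1 and Btg2, of which Btg2 varied most between veins. They come from RefSeq on GRCm38.p6, the assembly behind mm10, and all 5 members had an entry. The window of Tob1 is chr11:94211204-94211453 on the plus strand. The window of Btg1 is chr10:96616751-96617000 on the plus strand and that of Btg2 is chr1:134079156-134079405 on the minus strand. The windows that RefSeq gives for Tob2 and Btg3 reach into those genes as GENCODE vM21 draws them, so the 2 annotations place their starts differently and neither window is shown or described. Capitals mark, on either strand, the CCAAT box (CCAAT), the TATA box (TATAAA), the cAMP response element (TGACGTCA) and the FoxO motif (TGTTTAC).
Tob1: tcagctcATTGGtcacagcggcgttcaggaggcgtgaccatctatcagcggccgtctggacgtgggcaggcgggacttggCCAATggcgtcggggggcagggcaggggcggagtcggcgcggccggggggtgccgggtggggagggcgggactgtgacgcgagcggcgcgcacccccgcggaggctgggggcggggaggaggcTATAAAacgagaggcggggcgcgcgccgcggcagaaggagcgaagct
Btg1: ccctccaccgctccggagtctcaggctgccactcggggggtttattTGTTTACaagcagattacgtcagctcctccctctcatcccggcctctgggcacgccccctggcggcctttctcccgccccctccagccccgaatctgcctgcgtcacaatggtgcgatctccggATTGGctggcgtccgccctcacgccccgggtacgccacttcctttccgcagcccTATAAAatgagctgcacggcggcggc
Btg2: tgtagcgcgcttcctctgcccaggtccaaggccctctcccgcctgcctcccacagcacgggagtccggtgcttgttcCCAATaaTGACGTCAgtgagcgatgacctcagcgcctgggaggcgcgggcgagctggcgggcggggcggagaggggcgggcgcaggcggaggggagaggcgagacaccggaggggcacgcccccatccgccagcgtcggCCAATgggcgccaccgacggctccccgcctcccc
The 3 windows differ in these letters. Tob1 holds a TATA box 47 bases before its start and CCAAT boxes at 243 and 170 bases. Btg1 holds a TATA box at 26 bases, a CCAAT box at 80 and the FoxO motif at 204, and Btg2 holds the cAMP response element at 166 bases between CCAAT boxes at 173 and 34. Among the 32851 promoters of the same length in the table, 1.55% held the cAMP response element, 3.17% the FoxO motif, 12.4% the TATA box and 33.8% the CCAAT box. A match describes the letters only.

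In these veins the family was carried by 4 genes of very different behaviour. Tob1 was lower in every MSC vein than in every vehicle vein, Tob2 and Btg1 overlapped between groups with close means, Btg2 was higher on average but varied widely, and Btg3 was barely detected. For testing across the table a gene needed an average of 1 RPKM or more in the 8 samples, which 4 of the 5 members reached and Btg3 did not.

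Tob1, first found as a partner of the receptor tyrosine kinase ErbB2, is a protein-coding gene on chromosome 11 at 94211454 to 94215495 on the plus strand of GRCm38 (GENCODE vM21), with 2 exons of which 1 is coding. Its level was 22.0, 19.0, 14.8 and 14.2 RPKM in vehicle replicates 1 to 4 and 7.66, 8.24, 7.88 and 6.94 RPKM in MSC replicates 1 to 4. The lowest vehicle vein thus stood above the highest MSC vein, and the 4 MSC veins lay closer to each other than the 4 vehicle veins did. Means were 17.5 ± 3.70 RPKM in vehicle and 7.68 ± 0.550 RPKM in MSC veins (SD, n = 4 each), a 2.28-fold lower mean with MSCs. On the log2(RPKM + 1) scale the difference was -1.07 (SE 0.14). The reads behind it numbered 712 to 2326 per sample.

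Across the whole table, limma called 28 of 12129 genes tested at an adjusted p of 0.05, which is 0.231%, and of which 25, or 0.206% of genes tested, were lower and 3, or 0.0247%, higher with MSCs. Tob1 was the 1 member among the 28, with the 16th most negative log2 fold change of them. A log2 fold change of -1 or below was reached by 136 genes (1.12%), Tob1 included. The groups did not overlap in 1186 genes, 9.78% of those tested (5.61% higher and 4.17% lower with MSCs), and of the 4 members tested this held for Tob1 only. Since this comparison served in choosing the family, nothing is read from these counts. Tob1 was called in 10 of 17 alternatives. The call was lost, among others, with no filter on low values. It was also lost without vehicle replicate 2 or 3, or without MSC replicate 1, 2 or 4. These fits keep the values of the remaining samples, so they could not make the groups overlap. The log2 fold change lay between -1.20 and -0.96 over the 17 alternatives.

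Tob2, the closest relative of Tob1, lies on chromosome 15 at 81848272 to 81858796 on the minus strand and has the same layout of 2 exons with 1 coding exon. Vehicle replicates 1 to 4 gave 11.8, 6.89, 9.38 and 9.33 RPKM, and the MSC replicates 7.43, 8.92, 8.51 and 10.1 RPKM. The lowest and the highest vein were both vehicle samples, and the MSC values lay within that range. The log2 fold change was -0.07 (SE 0.15). An exon of Tob2 overlaps the antisense gene Gm49476 on the opposite strand, and no source used here gives the use of strand, so reads of the pair cannot be told apart.

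**Figure D1:**
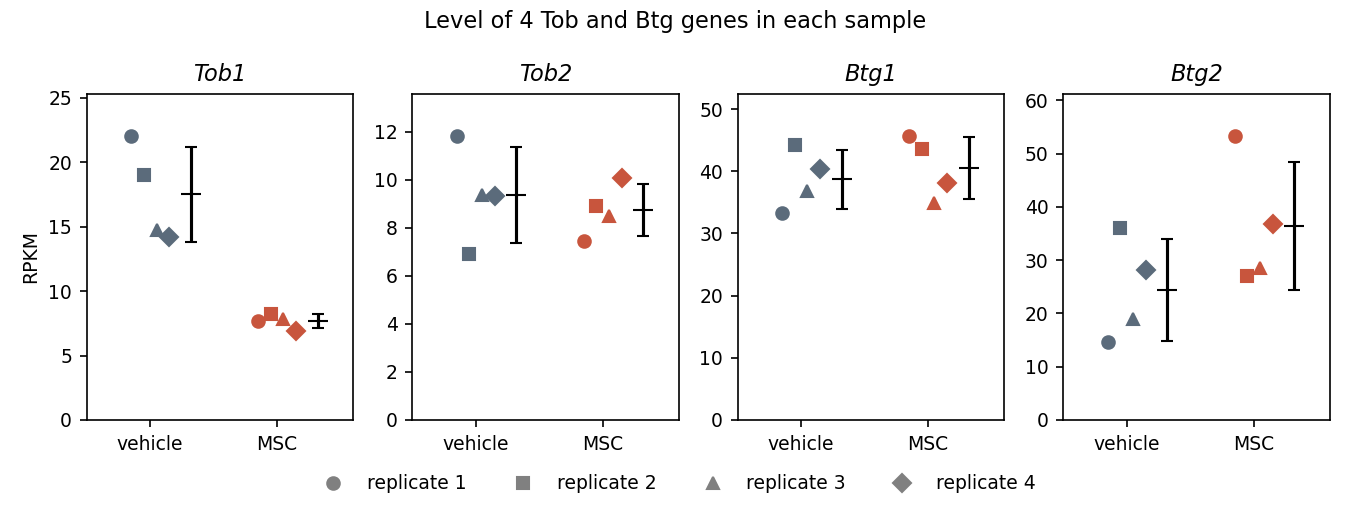
RPKM (vertical axes, from 0) of Tob1, Tob2, Btg1 and Btg2 in 4 vehicle and 4 MSC veins. Points are samples, with shape giving the replicate, and the bar beside them is the mean with its SD. Tob1 is the 1 panel without overlap, with 14.2 RPKM as the lowest vehicle and 8.24 RPKM as the highest MSC value.

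Btg1, named for a translocation in B-cell leukaemia, is on chromosome 10 at 96617006 to 96622809 on the plus strand. It measured 33.3, 44.3, 36.8 and 40.4 RPKM in vehicle replicates 1 to 4 and 45.7, 43.6, 34.8 and 38.1 RPKM in the MSC replicates. It was the steadiest member, with a highest sample 1.37 times the lowest, and the groups overlapped almost completely. Its log2 fold change was 0.07 (SE 0.12), from 7708 to 10145 reads per sample.

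Btg2, on chromosome 1 at 134075170 to 134079120 on the minus strand, was the most variable of the 4 members. Its level was 14.6, 36.1, 18.9 and 28.2 RPKM in the vehicle veins, replicates 1 to 4, and 53.3, 27.1, 28.6 and 36.7 RPKM in the MSC veins. The highest value was MSC replicate 1 and the lowest was vehicle replicate 1, yet vehicle replicate 2 stood above MSC replicates 2 and 3. Means were 24.4 ± 9.60 RPKM in vehicle and 36.4 ± 12.0 RPKM in MSC veins (SD, n = 4 each). The log2 fold change of 0.59 had an SE of 0.29, and it was 0.38 without vehicle replicate 1, 0.39 without MSC replicate 1 and 0.22 with sample weights. Btg2 was not called in any of the 17 alternatives.

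Btg3, on chromosome 16 at 78332637 to 78377192 on the minus strand, gave 1, 2, 2 and 2 reads in vehicle replicates 1 to 4 and 0, 0, 2 and 1 reads in the MSC replicates. Every sample was thus under 3 reads, the limit that a count of 0 allows, which for this gene equals 0.0406 to 0.0550 RPKM per sample. No fold is given, because both groups are under that limit. The low level is uncertain: the 756 bases of the processed pseudogene Gm7334 on chromosome 17 were identical, at 100%, to bases 217 to 972 of a Btg3 transcript of 1414 bases, and no source used here gives the treatment of reads that match both places. The deposited table lists Gm7334 at 0 RPKM in all 8 samples and places it on chromosome 16, unlike GENCODE vM21. An exon of Btg3 also overlaps Cxadr on the opposite strand. For Btg1 the processed pseudogene Gm14519 on chromosome X matched 312 of 5001 transcript bases at 98.7% identity, and no such copy was found for Tob1 or Btg2.

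Because RPKM is per length, the members can be ordered within a sample. Btg1 led in 7 of the 8 veins and Btg2 in MSC replicate 1. In vehicle veins the mean RPKM went down from Btg1 (38.7) to Btg2 (24.4), Tob1 (17.5) and Tob2 (9.35). The ranges of Btg1 and Btg2 overlapped, as did those of Btg2 and Tob1, whereas the lowest Tob1 value, 14.2 RPKM, was above the highest Tob2 value, 11.8 RPKM. In MSC veins the ranges of Btg1 and Btg2 overlapped again and so did those of Tob1 and Tob2. Over all 8 samples Btg1 had a higher mean RPKM than 89.6% of the genes tested, Btg2 than 86.2%, Tob1 than 64.6% and Tob2 than 53.1%.

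The balance between the paralogs Tob1 and Tob2 differed with treatment. The ratio of Tob1 to Tob2 RPKM was 1.87, 2.76, 1.58 and 1.52 in vehicle replicates 1 to 4 and 1.03, 0.924, 0.926 and 0.688 in MSC replicates 1 to 4. Every vehicle vein held more Tob1 than Tob2 per length, while MSC replicates 1 to 3 held about equal levels of both and MSC replicate 4 held less Tob1 than Tob2. The ratio of Btg2 to Btg1 was 0.439, 0.814, 0.514 and 0.697 in vehicle and 1.17, 0.621, 0.821 and 0.965 in MSC veins, and these groups overlapped. Both ratios restate the levels above and are given without a test.

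**Figure D2:**
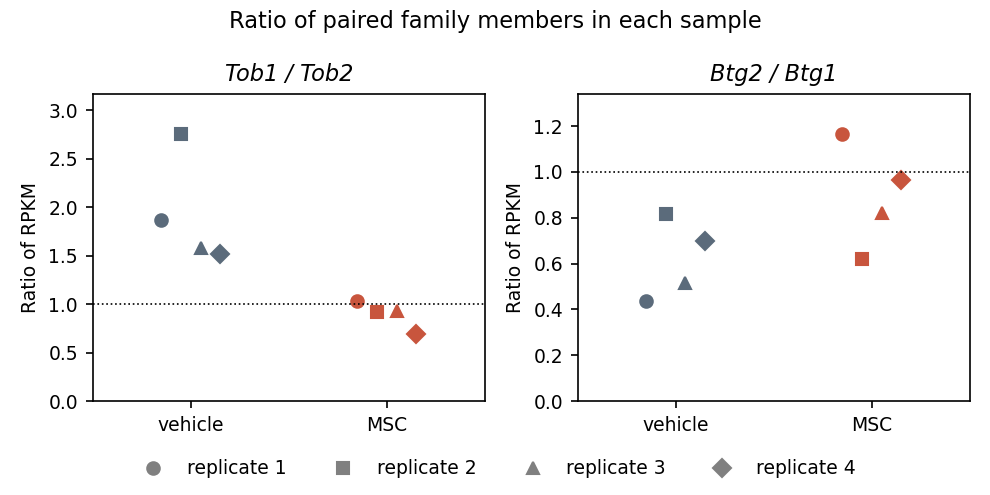
Ratio of RPKM of Tob1 to Tob2 (left) and of Btg2 to Btg1 (right), from 0, in each vein, with the replicate as the shape. The dotted line marks equal levels. Tob1 to Tob2 ran from 1.52 to 2.76 in vehicle and from 0.688 to 1.03 in MSC veins, and Btg2 to Btg1 overlapped between groups.

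Summed over the family, the 5 genes gave 79.9 to 106 RPKM in vehicle and 79.9 to 114 RPKM in MSC veins, so the groups overlapped. What differed was the make-up. Tob1 made up 26.9%, 17.9%, 18.5% and 15.4% of the sum in vehicle replicates 1 to 4 and 6.72%, 9.38%, 9.86% and 7.56% in the MSC replicates. The share of Btg2 ran from 17.9% to 33.9% in vehicle and from 30.8% to 46.7% in MSC veins, and that of Btg1 was 43.1% ± 2.37 in vehicle and 43.7% ± 4.24 in MSC veins (SD, n = 4 each). Shares of a sum are not independent, so a lower share of Tob1 raises the others.

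**Figure D3:**
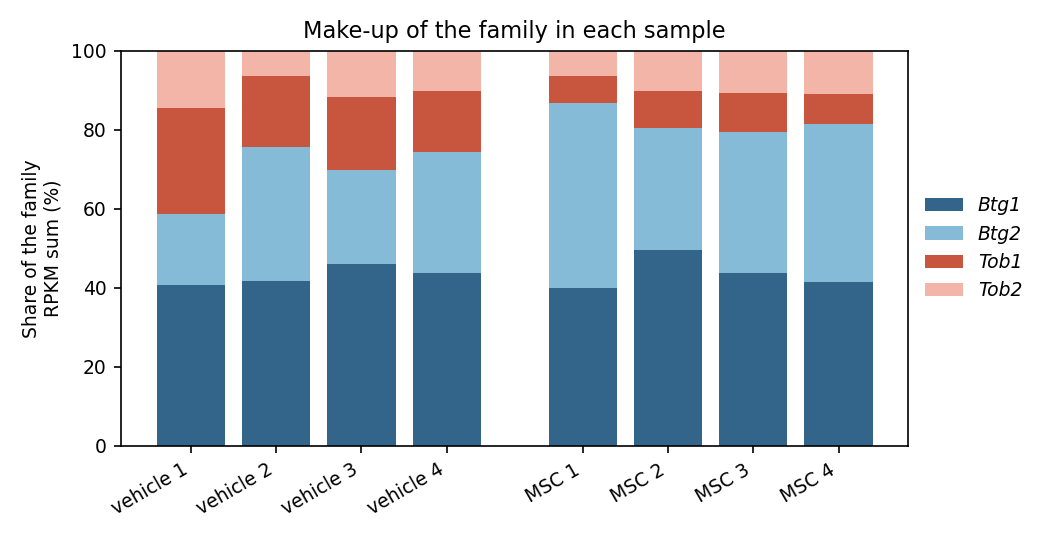
Stacked shares (percent, vertical axis from 0 to 100) of Btg1, Btg2, Tob1 and Tob2 in the RPKM sum of the family, 1 bar per vein. The Tob1 segment spans 15.4% to 26.9% in vehicle and 6.72% to 9.86% in MSC veins. Btg3, at most 0.0410%, is too small to draw.

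The members also differed in features that the choice of the family did not use. Btg3 has 4 coding exons, a 3′ untranslated region of 439 bases and 4 copies of the pentamer ATTTA in it. Both Tob genes carry their coding sequence in a single exon, as do 16.3% of protein-coding genes with a transcript in the annotation, and Btg1 and Btg2 have 2 coding exons each. The 3′ untranslated region was 767 bases long in Tob1, 2457 in Tob2, 4166 in Btg1 and 2199 in Btg2, against a median of 798 over protein-coding genes. The pentamer ATTTA, the core of AU-rich elements that mark short-lived messages, occurred 3 times in that region of Tob1, 4 times in Tob2, 11 times in Btg1 and 5 times in Btg2. At least 1 ATTTA was present in 61.6% of genes with such a region, so its presence does not set the family apart. The promoters of Tob1, Btg2 and Btg1 held 32, 27 and 21 CpG in 250 bases, and the median promoter held 6. At least as many were found in 4.58%, 8.56% and 16.3% of promoters, in the same order.

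The genes whose log2 level over the 8 samples was most like that of each member are named as a description, over samples that include the group difference and share their library depth. For Tob1 they were Cyp2e1, a cytochrome P450 (Pearson r = 0.983), Cwf19l2 (r = 0.969) and Serpina3c, a serine protease inhibitor of a multigene family (r = 0.969). Cyp2e1 was at 179, 150, 64.6 and 98.2 RPKM in vehicle and at 9.06, 17.2, 16.4 and 8.63 RPKM in MSC veins, and its groups did not overlap either. For Tob2 they were Tmppe, Pou2f1, an octamer-binding transcription factor, and the small nucleolar RNA gene Snora34, with r from 0.958 to 0.964. For Btg1 they were the chemokine gene Cxcl12, the ubiquitin ligase gene Rnf34 and Ints12 of the Integrator complex, with r from 0.911 to 0.922.

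For Btg2 the most alike genes were the collagenase gene Mmp13 (r = 0.958) and the immediate early transcription factor genes Egr2 (r = 0.944) and Atf3 (r = 0.931). Atf3 was at 8.34, 39.6, 19.6 and 18.8 RPKM in vehicle and 47.3, 20.7, 27.5 and 38.3 RPKM in MSC veins. As with Btg2, vehicle replicate 1 was lowest, MSC replicate 1 was highest and vehicle replicate 2 stood among the MSC veins. Egr2 had its highest value, 14.2 RPKM, in MSC replicate 1 and its lowest, 3.54 RPKM, in vehicle replicate 3.

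Immediate early genes, the group to which Btg2 belongs by its induction, had positive log2 fold changes in 17 of 17 members tested, with a median of 0.41 against 0.04 over all genes tested, of which 7214 of 12129 were positive. None passed in limma and 3 had an unadjusted p under 0.05, a threshold that 1998 of the 12129 genes tested (16.5%) met, which is the background for the counts that follow. The 3 were the AP-1 genes Jund (log2 fold change 0.44) and Junb (0.46), and Egr3 (0.57), with adjusted p of 0.222, 0.230 and 0.237. The mean log2(RPKM + 1) of the list was 4.21, 4.62, 3.70 and 4.21 in vehicle and 4.92, 4.25, 4.40 and 4.67 in MSC veins, and the groups overlapped. The median was 0.18 without vehicle replicate 3, 0.20 without MSC replicate 1 and 0.18 with sample weights. The log2 fold change of Egr1 was 0.16 and that of Fos 0.44, with an SE of 0.37 and 0.40.

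No difference was called in the deadenylase machinery that the family recruits. Of 12 CCR4-NOT subunits tested none passed in limma and none had an unadjusted p under 0.05. Their log2 fold changes ran from -0.07 for Cnot7 to 0.19 for Cnot8, with a median of 0.05. Cnot7 was at 10.9 ± 0.773 RPKM in vehicle and 10.3 ± 0.548 RPKM in MSC veins, and Cnot8 at 17.9 ± 1.76 and 20.6 ± 1.06 RPKM (SD, n = 4 each; limma adjusted p = 0.696 and 0.310). Next by unadjusted p were Cnot10 and Tnks1bp1, with log2 fold changes of 0.12 and 0.10.

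Numbers in parentheses after genes are log2 fold changes from here on. Poly(A)-binding and PAN2-PAN3 genes had 0 of 10 past the threshold in limma, 0 with an unadjusted p under 0.05 and a median of -0.06. Pabpc4 (0.12) had the smallest unadjusted p, followed by the deadenylase genes Pan3 (-0.10) and Pan2 (-0.08). Pabpc1, the main poly(A)-binding protein of the cytoplasm, was at 144 ± 6.71 RPKM in vehicle and 149 ± 12.7 RPKM in MSC veins. Decapping and 5′ decay genes had 0 of 9 past the threshold in limma, 0 with an unadjusted p under 0.05 and a median of -0.03, led by Lsm1 (-0.14), Edc3 (0.13) and the exonuclease gene Xrn1 (-0.14). RNA-binding adaptors that bring CCR4-NOT to messages had 0 of 13 past the threshold in limma and a median of -0.04. Only Rc3h1, which encodes roquin, had an unadjusted p under 0.05 (-0.23, limma adjusted p = 0.217), and Cpeb1 (-0.21) and Rc3h2 (-0.10) came next.

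Signalling and transcription partners of the family spread more widely. Prmt1, the methyltransferase bound by Btg1 and Btg2, was at 27.6, 26.2, 31.5 and 25.9 RPKM in vehicle and at 36.0, 41.1, 36.8 and 39.4 RPKM in MSC veins. The groups did not overlap, with a log2 fold change of 0.45 (SE 0.09), but the gene did not pass (limma adjusted p = 0.0697, and 0.0415 to 0.192 over the alternatives). It passed with size factors, quantile normalization or sample weights. E2f1, the transcription factor of S-phase entry bound by Btg3, was at 6.05 ± 1.28 RPKM in vehicle and 8.95 ± 0.657 RPKM in MSC veins (0.51, limma adjusted p = 0.104), and Mapk3, a kinase of the pathway that phosphorylates Tob1, had 0.31 (limma adjusted p = 0.125). Smad1, a mediator of BMP signalling that Tob proteins bind, had lower values in every MSC vein (-0.27, limma adjusted p = 0.219). Of 11 partners tested 0 passed in limma, the median was 0.07, and 5 had an unadjusted p under 0.05, of which Smad1 was the 1 with a negative value.

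Targets of p53, which also induces Btg2, had a median of 0.15 over 20 genes, with 0 past the threshold in limma and 4 with an unadjusted p under 0.05. The kinase gene Plk3 had a log2 fold change of 0.49 and the apoptosis genes Bax and Bbc3 had 0.33 and 0.29, while Trp53inp1, the fourth, had -0.37. Cdkn1a, the p53-induced inhibitor of cyclin-dependent kinases, was at 35.2 ± 13.9 RPKM in vehicle and 35.4 ± 5.13 RPKM in MSC veins (SD, n = 4 each). FoxO and quiescence genes had a median of -0.08 over 17 genes, with 0 past the threshold in limma and 3 with an unadjusted p under 0.05, the insulin receptor substrate gene Irs2 (-0.46), the interleukin-7 receptor gene Il7r (0.27) and Txnip (-0.49).

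Genes of the cell cycle, the process that the family restrains, did not pass either. G1 cyclins, kinases and inhibitors had a median of 0.14 over 21 genes, with 0 past the threshold in limma and 7 with an unadjusted p under 0.05. Cdk4, the kinase partner of D cyclins, was at 56.4 ± 6.25 RPKM in vehicle and 75.2 ± 1.70 RPKM in MSC veins (log2 fold change 0.42, limma adjusted p = 0.0883). E2f1 came next, and Cdkn2c, which encodes the Cdk4 inhibitor p18, had 17.5 ± 5.98 RPKM in vehicle and 9.89 ± 1.83 RPKM in MSC veins without overlap (-0.73, limma adjusted p = 0.140). S phase and mitosis genes had positive values in 20 of 20 genes with a median of 0.26, none past the threshold in limma and 8 with an unadjusted p under 0.05, led by the replicative helicase genes Mcm3 (0.50), Mcm5 (0.49) and Mcm2 (0.50). The groups overlapped in each of the 20 genes, and in the mean log2(RPKM + 1) of the list vehicle replicate 3, at 4.16, stood above MSC replicates 1 to 3, at 3.89, 4.07 and 4.11.

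Over the 10 lists together, 147 different genes were tested. None passed in limma, 0 passed in limma voom on the recovered reads, and 30 had an unadjusted p under 0.05, which is 20.4% against 16.5% of all genes. The groups did not overlap in 16 of them, 10.9%, close to the 9.78% of all genes. Exons of Cdk4, Cnot7, Plk3, Junb, Jund, Txnip, Irs2, Edc3, Xrn1, Rnf34, Ints12, Pou2f1, Cdkn1a, Cd22 and Tagln overlap a gene on the opposite strand, and those of Bax, Tmppe and Snora34 one on the same strand, so their values are uncertain. Overlaps of Acsl1, Smad1 and Trp53inp1 are not given here.

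**Figure D4:**
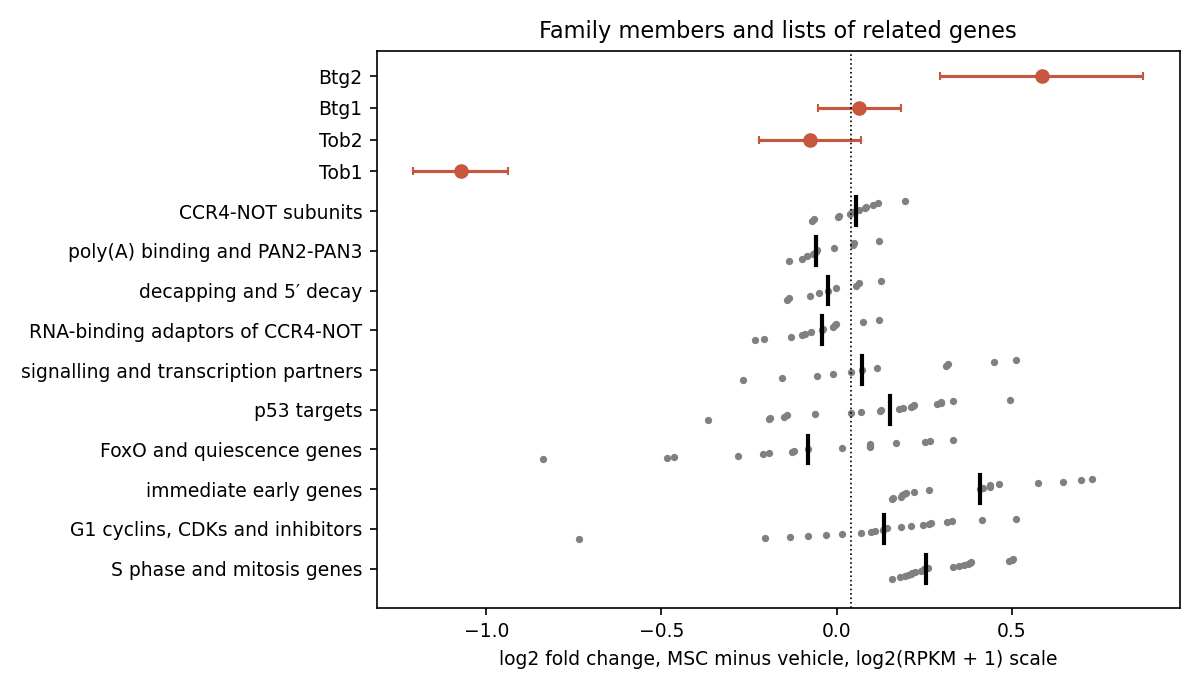
Log2 fold change, MSC minus vehicle, on the log2(RPKM + 1) scale (horizontal axis) for 4 members with SE bars (top) and for each gene of the 10 lists (grey points, black bar at the list median). The dotted line is the median over all 12129 genes, 0.04. Tob1 lies at -1.07, to the left of every listed gene, and Btg2 at 0.59 has the widest SE of the members.

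Of the marker lists of cell types, only that of adipocytes did not overlap between groups in its mean log2 level. In bulk tissue, fewer cells of a type and less RNA per cell cannot be told apart. Of the 15 adipocyte genes, Fabp4 and Cfd were the most abundant. All 15 had a lower mean log2 level with MSCs, and 1 of them, Acsl1, passed in limma. Their summed level was 3524, 3788, 3702 and 5159 RPKM in vehicle and 524, 1508, 2058 and 474 RPKM in MSC veins, and no defining marker was at 0. Like Tob1, the sum was lower in every MSC vein. Within vehicle, replicate 4 had the most adipocyte RNA and the least Tob1, and replicate 1 the least adipocyte RNA and the most Tob1. Within MSC, replicate 4 was lowest in both and replicates 2 and 3 were the highest in both. The part of adipocytes in the difference of Tob1 was not tested.

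The remaining marker lists overlapped between groups in their mean log2 level. Vein wall markers were present throughout, with summed RPKM of 435 to 729 over 10 endothelial genes led by Pecam1 and Vwf, 165 to 296 over 9 smooth muscle genes led by Acta2 and Tagln, and 2118 to 3033 over 10 fibroblast genes led by Col1a2 and Col1a1. Monocyte and macrophage genes, led by Lyz2 and C1qb, summed to 3514 to 4378 RPKM in vehicle and 4073 to 6374 RPKM in MSC veins. Neutrophil genes, led by S100a9 and S100a8, ranged from 219 to 803 RPKM in vehicle and from 561 to 1350 RPKM in MSC veins. Vehicle replicate 1 was lowest and MSC replicate 1 highest, as for Btg2. The vehicle replicates fell in the same order as for Btg2, but the MSC replicates did not. MSC replicate 2, at 1328 RPKM of neutrophil genes, had the lowest Btg2 of the MSC veins. MSC replicate 4, at 561 RPKM, had more Btg2 than MSC replicates 2 and 3. Lymphocyte RNA was scarce. The 9 T cell genes (Ccr7, Cd2) summed to 5.33 to 13.6 RPKM in vehicle and 7.30 to 17.01 RPKM in MSC veins, and the 7 B cell genes (Cd79b, Cd22) to 2.95 to 7.56 RPKM and 4.93 to 17.4 RPKM, with MSC replicate 3 highest in both. Skeletal muscle genes (Acta1, Tnnt3) ran from 2.79 to 535 RPKM in vehicle and from 9.46 to 736 RPKM in MSC veins, and red cell and platelet genes (Pf4, Ppbp) from 406 to 645 and from 550 to 815 RPKM. No marker of any list was at 0 in all samples. The part of these cells in the values of the family was not tested.

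**Figure D5:**
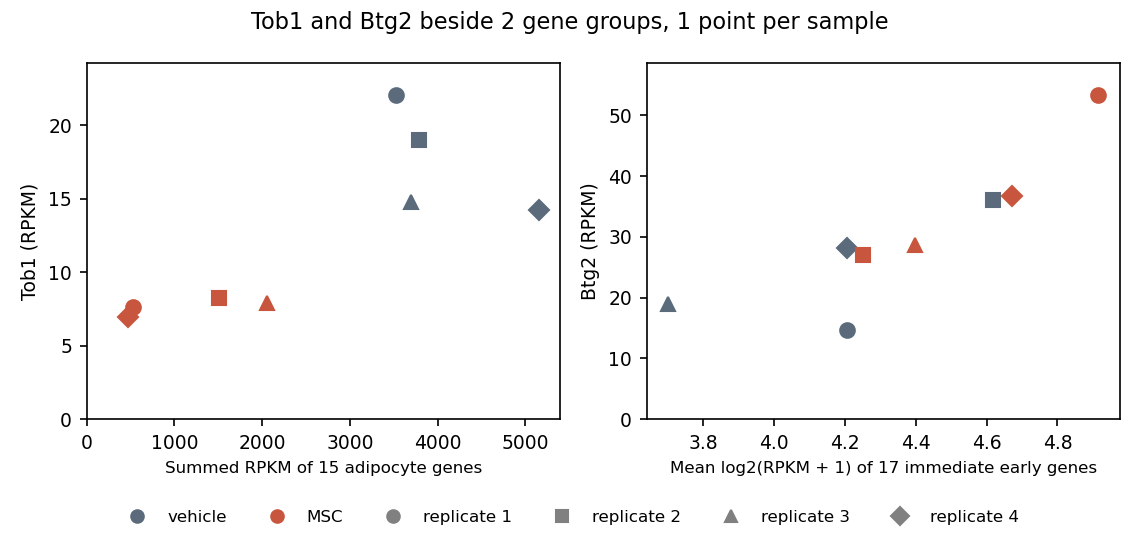
Left, Tob1 RPKM against the summed RPKM of 15 adipocyte genes, and right, Btg2 RPKM against the mean log2(RPKM + 1) of 17 immediate early genes, 1 point per vein, with colour for the group and shape for the replicate. On the left the MSC veins lie at 474 to 2058 RPKM of adipocyte genes with Tob1 at 6.94 to 8.24 RPKM, apart from the vehicle veins, and on the right the groups overlap on both axes.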

How the data were processed

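RNA from 4 vehicle and 4 MSC outflow veins was measured by bulk RNA sequencing, from 0.5 µg of total RNA with a TruSeq V2 kit, per the labels' protocols. The authors deposited RPKM values, 1 column per sample. Per the submitters' processing notes, mm10 was used. The aligner, counter, annotation, filters and use of strand: not given in the sources used here.

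Within a gene, deposited values were whole multiples of what a single read is worth. All 143006 values above 0 could be turned back into reads (100% whole within 0.001 reads), which gave 26.9 M to 38.2 M gene reads per sample and RPKM denominators of 39.3 M to 53.2 M reads. Intervals and limits cover counting error only.

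Log2(RPKM + 1) was fitted with the limma package (version 3.58.1, under R 4.3.3), using its trended variance prior and no covariate, 2-sided, for 12129 genes that averaged 1 RPKM or more, with Benjamini-Hochberg adjustment at 0.05. Fold changes on this scale understate the change of low genes. The p-values measure the spread between samples, which may be technical. In simulated data 200 of 12129 genes were changed. The MSC against vehicle fit called 90% of those set to a change of 1 log2 unit and 98% of those set to 2. Of its calls 6.93% were false. Each gene was drawn on its own, without shifts shared by samples, so these rates may not hold for the veins.

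The members and all gene lists were chosen with earlier results of these data known. Lists held 152 pathway genes, all found, and 103 marker genes, 101 found, with 4 under an older symbol. Named genes were the members, the 3 of each pathway list with the smallest unadjusted p, the 3 with the highest Pearson r to each member tested, and the 2 most abundant of each marker list. Others named (Cnot7, Pabpc1, Cdkn1a, Egr1, Fos, Smad1, Trp53inp1 and Acsl1) were picked after values were seen. Gene models came from GENCODE vM21, taking the transcript with the longest coding sequence, promoters from RefSeq, and near-identical copies from BLAST+ 2.17.0 (identity of at least 90% over 100 bases). Motifs were searched on both strands. Alternatives covered the pseudocount, filter, scaling, replicate block, weights, variance trend, voom and each sample left out.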

Additional observations from a re-analysis of the deposited data

How the results depend on the processing

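How many genes passed in limma depended on the processing. Against 28, the count was 10 with a pseudocount of 0.1, 1 with no filter on low values, 93 with median-of-ratios size factors, 129 with quantile normalization, 73 with sample weights and 225 at an adjusted p of 0.1. It ran from 0 to 171 when 1 sample was left out: 0 without vehicle replicate 2 (1513 genes had an unadjusted p under 0.05) or MSC replicate 4 (1554), 1 without vehicle replicate 3, 3 without MSC replicate 1, 5 without MSC replicate 2, 8 without vehicle replicate 4, 17 without vehicle replicate 1 and 171 without MSC replicate 3. With the replicate number as a block 0 genes passed (1768 had an unadjusted p under 0.05) and so 0 members. The numbers did not pair the samples: deviations of same-numbered samples correlated at 0.14, -0.0028, -0.33 and -0.12, and 0 vehicle samples correlated best with their own number.

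Tob1 was called in 10 of 17 alternatives. Its groups stayed apart in all 17, but only size factors, quantile normalization and voom rescale samples against each other. In the other alternatives that result was fixed in advance. The number of members called was 0 with no filter on low values, and 0 to 1 with 1 sample left out. The log2 fold change ran from -0.20 to 0.09 for Tob2, from -0.03 to 0.13 for Btg1 and from 0.22 to 0.79 for Btg2, so the signs of Tob2 and Btg1 are not settled. These moves were within 1 SD of replicates. Of the pathway genes, 1 passed with size factors, 1 with quantile normalization and 1 with sample weights, in each case Prmt1, and between 0 and 1 with 1 sample left out (Jund, without vehicle replicate 1). Of 170 list medians under alternatives, 169 moved by less than 1 SD between samples, and the decapping list went to 0.03 without MSC replicate 1. Depth limits Btg3 alone among the members, with at most 2 reads per sample.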
